A study of Mus musculus with 1 sample.

Results

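To describe dividing cells of the newborn cortex with little or no RNA of the oligodendrocyte lineage genes Olig1, Olig2 and Pdgfra, barcodes were selected. Selection used counts of unique molecular identifiers (UMIs, 1 per captured RNA molecule) in a sc-RNA Seq library. A member had at least 1000 detected genes, at least 3 UMIs of Top2a, Mki67 and Cenpf together, at most 1 UMI of Olig1 and Olig2 together and no UMI of Pdgfra. The rule found 132 members, which were 1.46% of the 9018 barcodes with at least 1000 genes (95% exact binomial interval 1.23% to 1.73%) and 1.19% of all 11062 barcodes. The Olig and Pdgfra limits left out 133 further barcodes with dividing genes, and 8223 barcodes without any UMI of Top2a, Mki67 or Cenpf served as the non-dividing comparison. The library came from the cerebral cortex of wildtype C57BL/6 mice at P0 (its title says telencephalic tissue), digested with papain and captured with a 10x Genomics Chromium 3′ kit; the number of animals behind it was not given in the sources used here. Members had between 1972 and 64430 UMIs with a median of 11332.5, against a median of 8305 in non-dividing barcodes. Because there was 1 library, cells were not treated as replicates and no comparison was tested. Levels are CPM, the UMIs of a gene summed over a group of barcodes and scaled by the group's non-mitochondrial total, and every interval is a 95% interval for counting error only.

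A dividing cell copies its DNA in S phase, prepares in G2 and separates its chromosomes in mitosis, and each step needs proteins whose RNA is made for that step. In the developing cortex, radial glia (marked here by Slc1a3 and Fabp7) divide at the ventricle and give rise to Eomes-positive intermediate progenitors, which divide again to produce excitatory neurons. Progenitors that express Dlx1 and Dlx2 produce inhibitory neurons, and radial glia turn to making astrocytes around birth.

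The values that chose the members are given here as a description. Top2a (a topoisomerase that untangles sister chromatids) had 1387 UMIs in members, Mki67 (a coat protein of mitotic chromosomes) had 832 and Cenpf (a kinetochore protein) had 1192. The sum of these genes had a median of 11 and a maximum of 112 UMIs per member. It was exactly 3 in 17 members, and 54 barcodes within the same Olig and Pdgfra limits lay just outside with a sum of 2. Hmgb2, a chromatin protein abundant in dividing cells, was named as a marker of these cells but was not part of the rule. At least 3 Hmgb2 UMIs were found in 47.1% of the members with a sum of 3 and in 37.0% of the barcodes with a sum of 2. Over all members, 104 (78.8%, 70.8% to 85.4%) had at least 3 Hmgb2 UMIs, against 2.98% (2.62% to 3.37%) of non-dividing barcodes. After thinning to 2000 UMIs per barcode, a Hmgb2 UMI was present in 77.9% and 8.15%.

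The label held for most members but not for all. Hmgb2 was at 0 in 21 members, and 19 of these belonged to the 33 members that passed none of the lineage cuts described below. The cuts are minimum counts, so such a member could still hold a few UMIs of Dlx1, Dlx2, Slc1a3 or Fabp7. Likewise 21 members had neither Top2a nor Mki67 and entered through Cenpf alone, and 19 of them were among the same 33. Of the 99 members that passed at least 1 lineage cut, 97 had at least 3 Hmgb2 UMIs. Top2a or Mki67 was present in 97, but both are genes of the rule, so that count is a description only. Against the other members, 68 of 81 S phase genes were at least 2-fold lower (after adding 10 CPM to both levels) and 0 higher in these 33, and 89 of 94 G2 and mitosis genes were lower and 1 higher, beside 7.6% of all genes lower and 8.38% higher.

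**Figure D1:**
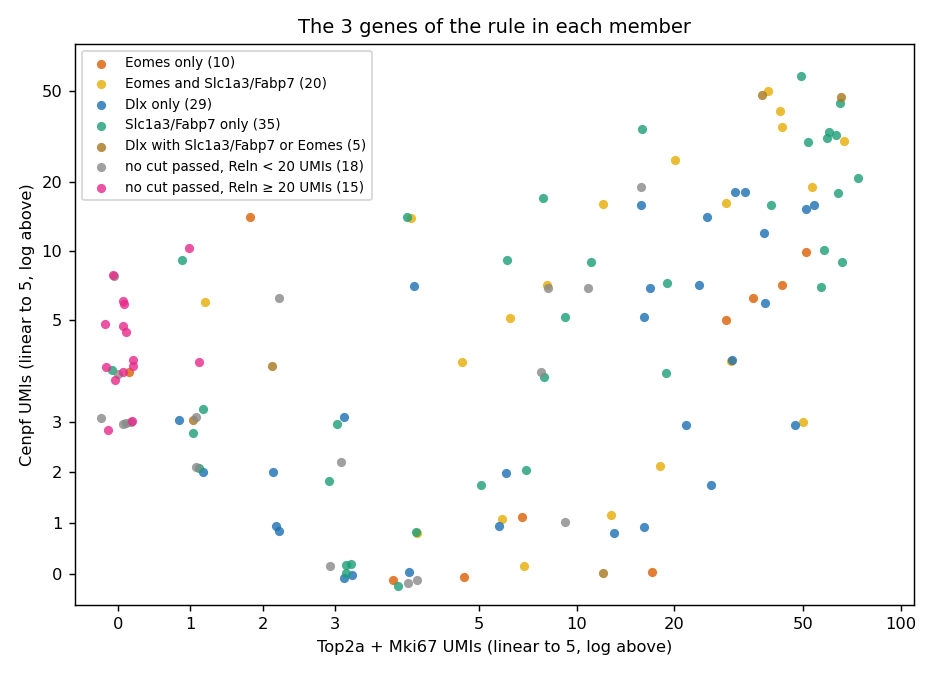
Each point is 1 of the 132 members, with Top2a and Mki67 UMIs together on the x axis and Cenpf UMIs on the y axis (both linear to 5 and logarithmic above, jittered by up to 0.25), coloured by lineage group. The 15 members with at least 20 Reln UMIs sit at 0 or 1 on the x axis with 3 to 10 Cenpf UMIs.

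Members that passed no lineage cut were led by Reln and its companions. Reln encodes a large secreted protein that Cajal-Retzius neurons release at the cortical surface. In 15 of the 33, Reln ranged from 61 to 154 UMIs, whereas no other member had more than 13. A limit of 20 Reln UMIs, chosen after these values were seen, gave 29 barcodes in the whole library without any use of dividing genes. Of these 29, 25 had a Cenpf UMI and the highest had 10. Cenpf reached 168 CPM (135 to 207) in them, against 3.09 CPM in the 8406 barcodes with fewer Reln UMIs and neither Top2a nor Mki67, a ratio of 54.4 (42.2 to 69.5). Top2a had 0 UMIs in the Reln barcodes, which allows up to 5.61 CPM (3 counts), and Ube2c, Cdk1 and Pclaf were also at 0. Mki67 had 3 UMIs in all. Hmgb2 was at 13.1 CPM (5.26 to 27.0) against 42.2 CPM. After thinning each barcode to 2000 UMIs, a Cenpf UMI remained in 20.7% (7.99% to 39.7%) of the Reln barcodes and in 0.575% of the comparison barcodes. The genes with the largest folds in these barcodes were Nhlh2, Ndnf, Cxcl12, Snhg11, Calb2, Angpt1, Ramp1 and Nr2f2. For example, Nhlh2, a neuronal transcription factor, stood at 1058 CPM against 0.95 CPM.

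Few other cell cycle genes were called higher in the Reln barcodes. Of 94 G2 and mitosis genes other than Top2a, Mki67 and Cenpf, 2 were at least 2-fold higher and 3 lower than in the comparison barcodes, beside 4.37% and 4.92% of all 16510 genes. The 2 higher genes were Cit, which encodes a kinase of cell abscission, at 297 CPM in all 29 barcodes against 4.72 CPM, and Racgap1, a regulator of the same step, at 35.5 against 5.70 CPM. Of 81 S phase genes, 1 was higher (Rfc1) and 3 were lower (Pcna, Nasp and Chaf1b). With 10 CPM added on both sides, a gene under 10 CPM in both sets could not be called. Summed, the mitotic kinase list stood at 101 against 56.8 CPM, 1.78-fold (1.33 to 2.32), with 0 of its 19 genes called. The anaphase list was at 0.965-fold (0.834 to 1.11) and the kinetochore list at 0.922-fold (0.718 to 1.17). Cdkn1a, an inhibitor of cyclin-dependent kinases, stood at 72.9 CPM (51.8 to 99.6) against 10.1 CPM. Without the barcode that held 12 of its 39 UMIs it stood at 52.4 CPM (34.6 to 76.3). The 15 members among these barcodes are named below by their Reln level only.

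A few further members carried genes of other cell types. Microglia and blood genes had at least 10 UMIs in 3 members, and all of these lay among the 33 that passed no lineage cut. They had 169, 233 and 678 such UMIs, and the last, with 64430 UMIs in total, also had 697 UMIs of endothelial genes and 192 of mural and meningeal genes. A further member had 11 endothelial UMIs. With all members, the endothelial list was 7.73-fold and the microglia and blood list 5.62-fold above non-dividing barcodes. Without these 4 members the endothelial list was at 0.194-fold (0.113 to 0.310) and the microglia and blood list at 0.0496-fold (0.0227 to 0.0941). The mural and meningeal list fell from 5.76-fold with all members to 1.71-fold (1.34 to 2.15) without these 4. Its gene Rgs5 had 39 UMIs in 11 of the 15 Reln members. Foxj1, a factor of ciliated cells, had 30 UMIs in 11 members, of which 19 lay in 1 member that also held all 12 UMIs of Pifo, a further gene of ciliated cells. Foxj1 stood at 18.36 CPM with that member and at 6.79 CPM (3.39 to 12.2) without it, against 1.55 CPM in non-dividing barcodes. High doublet scores marked 13 members (9.85%) and 6.83% of non-dividing barcodes. At least 2 UMIs were held by 20 members for the mural and meningeal list, 5 for endothelial and 3 for microglia and blood genes. These were 24 members in all and included Reln members that carried Rgs5. Without these 24, 68 of 81 S phase genes and 90 of 94 G2 and mitosis genes described below were higher. Without the highest doublet scores 61 and 90 were. These scores marked none of the 4 members with at least 10 UMIs of the endothelial, mural or microglia lists, the member of 64430 UMIs included. That setting therefore left those 4 members in.

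Genes of DNA replication and of mitosis were higher in members, with larger folds for mitosis. The same limit of 2-fold was used for every call. Among all 16510 genes tested, 5.93% were called higher and 3.07% lower in members than in non-dividing barcodes. Of the 81 S phase genes 61 were higher and 0 lower, with a median log2 fold change of 1.45, and of the 94 G2 and mitosis genes 90 were higher and 0 lower, with a median of 2.76. The median over all tested genes was 0.01. The rule had selected on Top2a, Mki67 and Cenpf in the same barcodes, so these counts describe the members and are not independent of their choice. Without barcodes with at least 20 Reln UMIs the counts were 69 and 91. The summed CPM of the S phase genes was 3.95-fold (3.87 to 4.03) and that of the G2 and mitosis genes 6.24-fold (6.17 to 6.31) the non-dividing level.

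**Figure D2:**
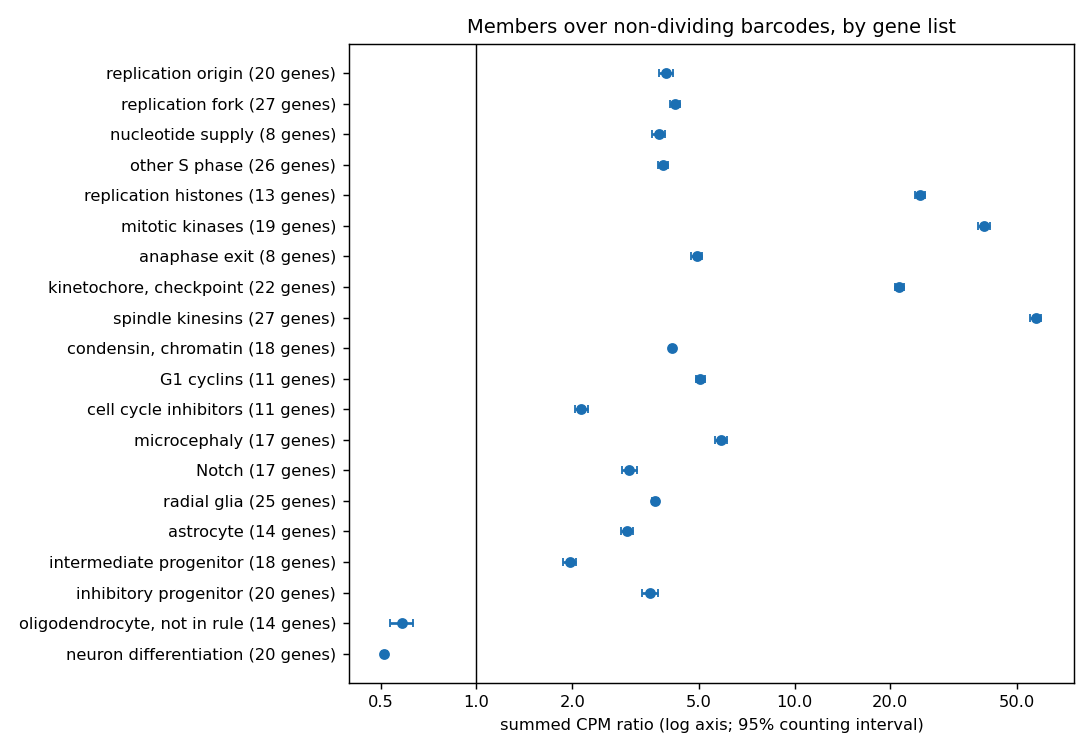
Each point is the summed CPM of a gene list in 132 members divided by that in 8223 non-dividing barcodes (log axis), and the lines are 95% counting intervals. Spindle and kinesin genes (57.2-fold) and mitotic kinases (39.4-fold) lie farthest to the right, and neuronal differentiation genes (0.513-fold) lie farthest to the left.

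Genes of replication origins were higher in 13 of 20 cases. Gmnn, the inhibitor of relicensing, stood at 91.8 CPM (77.7 to 108) against 1.99 CPM, and Mcm3, a subunit of the replicative helicase, at 73.4 against 2.75 CPM. Orc6, an origin subunit, differed little at 123 against 94 CPM. At the replication fork 18 of 27 genes were higher, led by Pclaf, a partner of the sliding clamp, at 346 CPM (318 to 376) against 2.73 CPM, while the polymerase subunit Pold3 had 32.4 against 32.2 CPM. Of the enzymes of deoxynucleotide supply 7 of 8 were higher, with Rrm2, the small subunit of ribonucleotide reductase, at 151 against 11.0 CPM. Replication-dependent histones were higher in 11 of 11 tested genes. Hist1h1b, a linker histone, had 707 CPM (667 to 749) against 2.17 CPM. Histone genes are a family of close copies, so reads could have been shared among them.

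All 19 mitotic kinases, cyclins and phosphatases were higher. Cdk1, the kinase that starts mitosis, stood at 230 CPM (207 to 254) against 0.96 CPM, and Pbk, a mitotic kinase, at 291 against 0.66 CPM, the largest fold of this list. The smallest fold after adding 10 CPM belonged to Cdkn3, a phosphatase that acts on Cdk1, at 18.36 against 0.0658 CPM. All 27 mitotic kinesins and spindle proteins were higher, led by Prc1, which bundles microtubules of the midzone (328 against 3.57 CPM), Tpx2, an activator of Aurora A (243 against 2.04 CPM), and Kif11, the motor that separates spindle poles (188 against 0.68 CPM). Kinetochore and checkpoint genes were higher in 21 of 22 cases, with Cenpa, the histone of centromeres, at 438 CPM (407 to 471) against 3.25 CPM. Oip5, a loader of that histone, missed the fold limit at 12.9 against 2.08 CPM. Of the genes of anaphase 7 of 8 were higher. Ube2c, its ubiquitin-conjugating enzyme, had 417 CPM (386 to 449) against 1.74 CPM, and Fzr1, an activator used in G1, had 66.7 against 44.6 CPM. Among condensins and chromatin proteins 16 of 18 were higher. Hmgb2 had 2101 CPM (2031 to 2172) against 40.0 CPM, whereas Hmgb1 and Cbx5, both abundant in non-dividing barcodes, were at 1.65-fold and 1.16-fold. Of 17 genes of primary microcephaly, a condition of reduced cortical growth, 11 were higher and 0 lower, with Aspm, a spindle pole protein, at 109 against 0.92 CPM.

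The promoters of these genes carried different short sequences, shown here because most genes of both lists were higher in members. Sequences were taken from the RefSeq table of build GRCm38.p6, whereas the submitters' processing notes name mm9 for the library, so genes were matched by symbol alone. Of 81 S phase genes 64 matched with 73 promoters, and of 94 G2 and mitosis genes 80 matched with 92 promoters. Letters were searched on both strands from 250 bases before to 50 bases after the start. TTTGAA, the cell cycle homology region read by the DREAM complex, was present in 57.6% of G2 and mitosis promoters, 17.8% of S phase promoters and 17.9% of all 32851 promoters. CCAAT, the letters read by NF-Y, was found in 71.7%, 57.5% and 37.4%. E2F letters (TTTCCCGC, TTTCGCGC, TTTGCCGC or TTTGGCGC) were found in 10.9%, 34.2% and 2.26%. A match is a description of letters, not of binding. The following windows run 5′ to 3′ from 200 bases before to 30 bases after the start of the 3 genes of the rule, Hmgb2, and the S phase genes Pclaf and Mcm5, with these letters on either strand in capitals. The E2F matches of Mcm5 overlap each other.
Cenpf (chr1:189688057-189688286, minus strand): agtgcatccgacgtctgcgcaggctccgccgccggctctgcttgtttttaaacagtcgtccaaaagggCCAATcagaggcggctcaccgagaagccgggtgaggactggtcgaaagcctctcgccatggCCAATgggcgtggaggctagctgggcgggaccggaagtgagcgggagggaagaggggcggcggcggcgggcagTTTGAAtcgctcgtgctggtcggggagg
Top2a (chr11:99024160-99024389, minus strand): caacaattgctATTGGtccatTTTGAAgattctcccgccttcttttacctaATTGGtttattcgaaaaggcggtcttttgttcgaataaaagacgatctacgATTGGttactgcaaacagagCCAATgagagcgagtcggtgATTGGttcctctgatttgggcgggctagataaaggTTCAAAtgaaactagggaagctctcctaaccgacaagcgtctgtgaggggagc
Mki67 (chr7:135716350-135716579, minus strand): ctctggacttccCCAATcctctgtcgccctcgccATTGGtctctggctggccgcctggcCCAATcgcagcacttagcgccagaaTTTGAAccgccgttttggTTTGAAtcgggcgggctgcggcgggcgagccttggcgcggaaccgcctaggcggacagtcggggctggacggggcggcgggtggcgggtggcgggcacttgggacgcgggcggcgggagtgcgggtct
Hmgb2 (chr8:57511643-57511872, plus strand): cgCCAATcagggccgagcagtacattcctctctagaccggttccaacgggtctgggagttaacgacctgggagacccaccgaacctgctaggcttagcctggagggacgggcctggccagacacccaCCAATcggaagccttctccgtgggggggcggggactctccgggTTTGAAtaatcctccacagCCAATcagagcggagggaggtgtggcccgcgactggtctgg
Pclaf (chr9:65890123-65890352, plus strand): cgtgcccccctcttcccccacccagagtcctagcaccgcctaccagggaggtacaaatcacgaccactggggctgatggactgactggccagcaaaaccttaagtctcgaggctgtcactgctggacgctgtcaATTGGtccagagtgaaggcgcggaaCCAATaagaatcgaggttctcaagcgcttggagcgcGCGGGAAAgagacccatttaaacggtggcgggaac
Mcm5 (chr8:75109309-75109538, plus strand): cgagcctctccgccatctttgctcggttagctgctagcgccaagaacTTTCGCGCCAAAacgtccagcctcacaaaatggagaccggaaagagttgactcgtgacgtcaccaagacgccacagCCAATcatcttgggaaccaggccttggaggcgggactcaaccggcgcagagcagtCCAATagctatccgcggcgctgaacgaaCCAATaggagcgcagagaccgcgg
In these windows Top2a and Mki67 held 2 matches of TTTGAA each and Cenpf and Hmgb2 1 each, while Pclaf and Mcm5 held none. Pclaf held 1 E2F match and Mcm5 held 2, and no E2F match lay in the windows of the other genes. Mcm5, a helicase subunit, stood at 52.0 CPM in members against 4.54 CPM.

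Members were next placed by their S phase and their G2 and mitosis RNA. Top2a, Mki67 and Cenpf are themselves G2 and mitosis genes, so the rule favoured such members and could hardly find barcodes with S phase RNA alone. To compare single barcodes at equal depth, each was thinned to 2000 UMIs, which left out 1 member. The 99th percentile of non-dividing barcodes was 9 S phase UMIs and 15 G2 and mitosis UMIs. Of 131 members, 64 were above both limits, 38 (29.0%, 21.4% to 37.6%) were above the G2 and mitosis limit alone, 2 were above the S phase limit alone and 27 (20.6%, 14.0% to 28.6%) were above neither. All members with Eomes alone, with Eomes and Slc1a3 or Fabp7, and with Dlx alone exceeded the G2 and mitosis limit, as did 32 of 35 members with Slc1a3 or Fabp7 alone. None of the 15 Reln members exceeded either limit. Of the other members that passed no lineage cut, 9 of 17 were above neither.

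**Figure D3:**
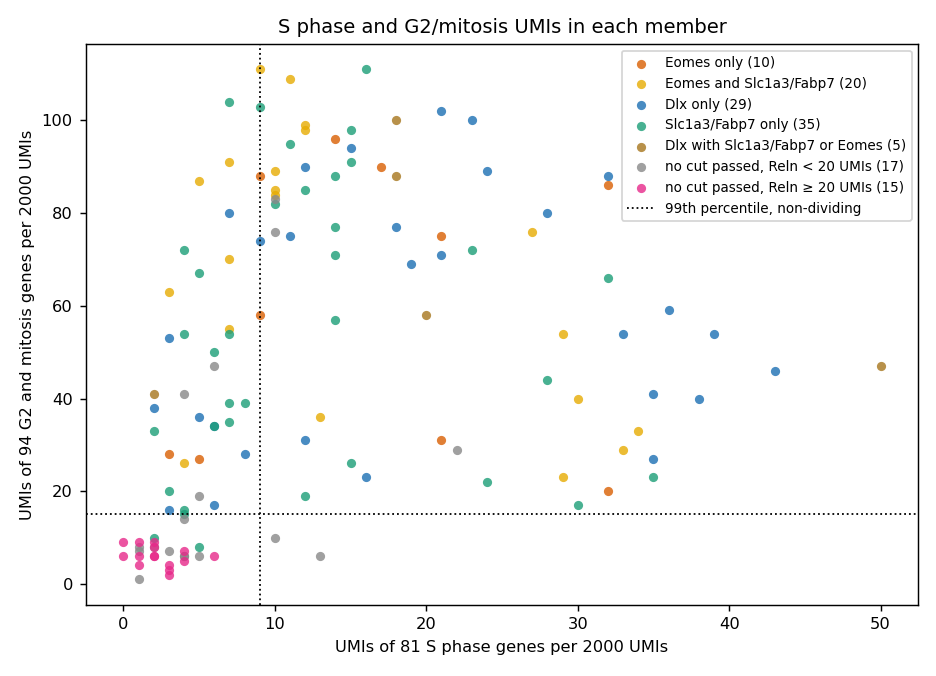
Each point is 1 of 131 members thinned to 2000 UMIs, with S phase UMIs on the x axis and G2 and mitosis UMIs on the y axis, coloured by lineage group. Dotted lines mark the 99th percentiles of non-dividing barcodes (9 and 15 UMIs), and the 15 Reln members lie below both.

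The summed UMIs of G2 and mitosis genes per S phase UMI were 2.71 (2.53 to 2.91) in members with Eomes alone, 3.08 (2.94 to 3.22) with Dlx alone, 4.24 (4.04 to 4.46) with Eomes and Slc1a3 or Fabp7, and 4.33 (4.15 to 4.52) with Slc1a3 or Fabp7 alone. Non-dividing barcodes had 2.29, since abundant chromatin genes are in the list. Without condensins and chromatin genes, an alternative chosen after seeing the data, the values were 1.13, 1.32, 2.05 and 2.13 against 0.412 in non-dividing barcodes. The order of Eomes alone and Dlx alone turned under other settings, so it was not stable. After thinning before the rule, Eomes alone had 4.06 (3.58 to 4.61) and Dlx alone 3.58 (3.23 to 3.98). With doubled lineage cuts, Eomes alone had 4.0 (3.82 to 4.20) over 23 members, Dlx alone 3.08 (2.94 to 3.23) and Slc1a3 or Fabp7 alone 4.24 (4.07 to 4.41).

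Among regulators of G1, cyclin D2 was the dominant D cyclin. Of 11 G1 genes 6 were higher in members and 0 lower. Ccnd2 had 1530 CPM (1471 to 1591) in members and 93.3 CPM in non-dividing barcodes, while Ccnd1 had 64.3 CPM (52.6 to 77.8) against 30.2 CPM. Cdk6, the kinase partner of D cyclins, stood at 239 against 32.5 CPM. Myc was at 9.18 CPM against 25.5 CPM. Of 11 inhibitors and exit genes, 5 were higher and 0 lower. Cdkn2c, an inhibitor of Cdk4 and Cdk6, had 75.9 CPM (63.1 to 90.5) against 1.96 CPM, and Btg2, an antiproliferative gene of neurogenic divisions, had 201 against 36.2 CPM, and 122 CPM (106 to 141) without the member of 64430 UMIs that held 136 of its 328 UMIs. Of the 145 Cdkn1c UMIs in members, 42 came from 1 member that passed no lineage cut. This gene, which drives exit from the cycle, was at 88.7 CPM against 148 CPM. It had 19.4 CPM (8.37 to 38.2) with Slc1a3 or Fabp7 alone, 21.1 CPM (6.86 to 49.3) with Eomes and Slc1a3 or Fabp7, 50.3 CPM (18.5 to 110) with Eomes alone, 84.2 CPM (53.4 to 126) with Dlx alone and 158 CPM (117 to 209) in the Reln members.

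Members were then divided by lineage genes, with at least 1 UMI of Eomes, at least 2 of Dlx1 and Dlx2 together, or at least 4 of Slc1a3 and Fabp7 together. Eomes passed in 31 members (23.5%, 16.5% to 31.6%), the Dlx pair in 34 (25.8%, 18.5% to 34.1%) and Slc1a3 with Fabp7 in 59 (44.7%, 36.0% to 53.6%). A single cut was passed by 74 members, which were 35 with Slc1a3 or Fabp7, 29 with Dlx and 10 with Eomes. A pair of cuts was passed by 25 members, made up of 20 with Eomes and Slc1a3 or Fabp7, 4 with Dlx and Slc1a3 or Fabp7, and 1 with Eomes and Dlx. No member passed all 3 cuts, and 33 (25%) passed none. These genes defined the groups, so only other genes are compared below. Where a group is set against the other members, these include the 33 that passed no cut. Folds there partly reflect those 33, and no such comparison was made without them.

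Eomes and the radial glial genes were often found together in members. Of 31 members with Eomes, 20 (64.5%, 45.4% to 80.8%) passed the Slc1a3 and Fabp7 cut, against 14.9% (11.0% to 19.7%) of the 281 non-dividing Eomes barcodes within the same Olig and Pdgfra limits. The members were deeper, with a median of 10997 UMIs against 7109.5. After thinning to 2000 UMIs, a UMI of Slc1a3 or Fabp7 was present in 48.4% (30.2% to 66.9%) of Eomes members and in 29.3% (24.0% to 35.0%) of the non-dividing Eomes barcodes, and these intervals overlapped.

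**Figure D4:**
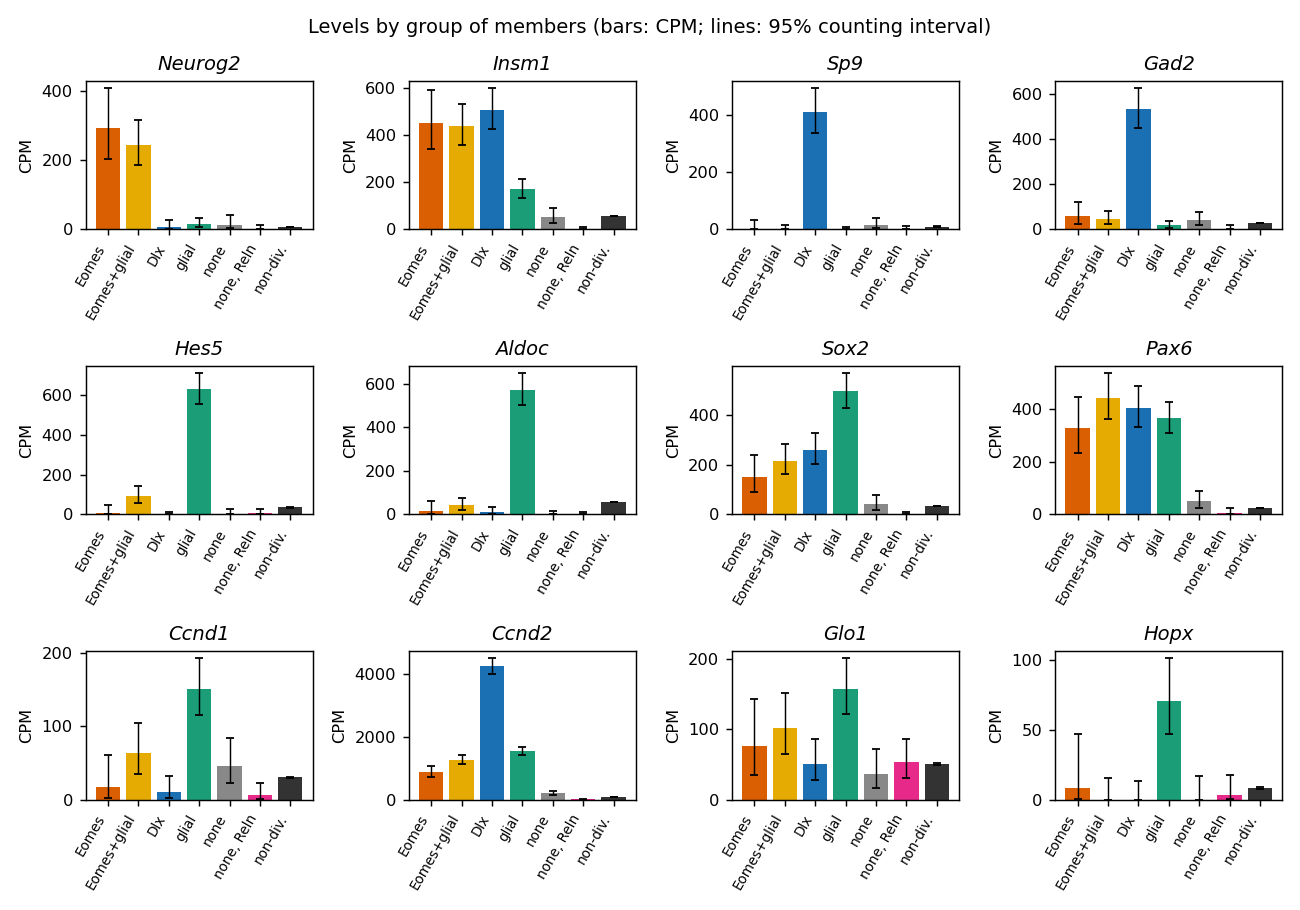
Bars give CPM in each group of members and in non-dividing barcodes, with 95% counting intervals as lines. Eomes, Dlx and glial (Slc1a3 and Fabp7) name the lineage cuts passed. Sp9 and Gad2 are high with Dlx alone, Hes5, Aldoc and Hopx with the glial cut alone, Neurog2 in both Eomes groups, and Pax6 in all 4 groups that passed a cut.

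Members with Eomes showed genes of neurogenic commitment. Against the other members, 3.32% of all genes were at least 2-fold higher and 9.04% lower in the 10 members with Eomes alone, and 1.64% and 7.93% in the 20 with Eomes and Slc1a3 or Fabp7. The leading genes of the first were Neurod4, Ggnbp1, Hist2h2bb, Hist1h3c, Neurog2, Sstr2, Gm45182 and Ptprk, and those of the second were Gm14207, Rhbdl3, Neurog2, E130006D01Rik, Pde1c, Sstr2, Rnd2 and Cplx2. Neurog2, a proneural factor of the dorsal cortex, had 294 CPM (205 to 408) with Eomes alone and 245 CPM (186 to 317) with both, against 46.9 and 34.3 CPM in the respective other members. Neurod4, a later factor of the same cascade, had 58.7 CPM (23.6 to 121) with Eomes alone, from 7 UMIs in 4 of 10 members, and 38.6 CPM (10.5 to 98.8) without the member that held 3 of them. Of 15 tested genes of intermediate progenitors, 4 were higher and 0 lower with Eomes alone, and 9 were higher and 1 lower with both. With Eomes alone 16 of 25 radial glial genes were lower than in other members, and Vim, an intermediate filament of radial glia, was at 50.4 CPM (18.5 to 110). With both, 6 of 25 were lower. Vim was at 545 CPM (455 to 648) there, but 78 of its 129 UMIs lay in 1 member, and the other 19 members stood at 232 CPM (173 to 305). After thinning, a Vim UMI was present in 30% (11.9% to 54.3%) of members with both and in 20% (2.52% to 55.6%) with Eomes alone. The pool with Eomes alone leaned on 1 member of 34746 UMIs, against a group median of 10256.5. That member also held 157 of the 1208 Mef2c UMIs of all members. The list counts were not computed without it. High doublet scores marked 2 of these 10 members (20%) and 10.6% of non-dividing barcodes with the same cut.

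Members with Dlx alone had genes of inhibitory neuron progenitors. Of 15 tested genes of that list 10 were higher and 0 lower than in other members, beside 1.57% and 7.46% of all genes. The 8 leading genes were Dlx5, Dlx6os1, Sp9, Sp8, St18, Gad2, Tiam2 and Nrxn3. Sp9, a transcription factor of ventral progenitors, had 410 CPM (337 to 493) against 3.67 CPM, and Gad2, an enzyme of GABA synthesis, had 534 CPM (451 to 628) against 30.1 CPM and was detected in all 29 members. Hes5, a Notch target, was at 0, which allows up to 11.0 CPM, and Emx2, a dorsal factor, had 18.3 against 123 CPM, from 5 UMIs. Pax6, known for its dorsal role, was not lower at 406 CPM (334 to 489) against 235 CPM. That 235 CPM includes members that passed no cut, with 6.33 CPM in Reln members and 50.6 CPM in the rest. Pax6 had 327 CPM (233 to 447) with Eomes alone, 444 CPM (363 to 537) with Eomes and Slc1a3 or Fabp7, and 366 CPM (310 to 429) with Slc1a3 or Fabp7 alone. Pooled over members, cyclin D2 was higher here than in the other groups given. Ccnd2 ranged from 9 to 82 UMIs per member with a median of 43 and reached 4241 CPM (4001 to 4493). It had 889 CPM with Eomes alone, 1255 CPM with Eomes and Slc1a3 or Fabp7, and 1538 CPM with Slc1a3 or Fabp7 alone. The intervals of these pooled levels did not overlap, but single members did. They had 2 to 47 UMIs with Eomes and Slc1a3 or Fabp7, and 0 to 64 with Slc1a3 or Fabp7 alone. Ccnd1 had 11.0 CPM (2.26 to 32.1). High doublet scores marked 5 of these 29 members (17.2%) and 12.9% of non-dividing barcodes with the same cut.

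Members with Slc1a3 or Fabp7 alone had radial glial and astrocyte genes. Of 25 radial glial genes 21 were higher and 0 lower than in other members, and of 12 tested astrocyte genes 10 were higher and 0 lower, beside 4.46% and 5.65% of all genes. The 8 leading genes were Tnc, Aldh1l1, Aldoc, Mt3, Hes5, Ccdc80, Tgfb2 and Plpp3. Hes5 had 627 CPM (553 to 709) against 31.1 CPM, and Aldoc, a glycolytic enzyme of astroglia, had 572 CPM (501 to 649) against 12.3 CPM. Aldh1l1, a folate enzyme of astrocytes, had 162 CPM against 3.28 CPM. Of 17 Notch genes 9 were higher and 2 lower. Ccnd1 was at 150 CPM (115 to 193), above its level with Dlx alone. Over all members, 6 of 12 tested astrocyte genes were higher than in non-dividing barcodes and 0 lower, and the list stood at 1177 CPM against 396 CPM. Without the 4 members with at least 10 UMIs of endothelial, mural or microglia lists it stood at 995.5 CPM, 2.51-fold (2.39 to 2.65). Apoe supplied 686 of the 1524 UMIs that were left. Aqp4, a water channel, had 6.12 CPM (2.93 to 11.3) against 3.09 CPM, and Gfap, an intermediate filament, had 6.12 against 1.71 CPM.

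Of 14 genes of the oligodendrocyte lineage that the rule did not use, 11 had UMIs in members. The rule kept barcodes with Olig or Pdgfra UMIs out of the members but not out of the 8223 non-dividing barcodes, so the genes are also given against the 7963 of these within the same limits, an alternative chosen after seeing the data. Sox10, Gpr17 and Nkx2-2 had 0 UMIs in members, which allows up to 1.84 CPM, and stood at 0.122, 0.0543 and 0.0407 CPM in those 7963 barcodes, so a difference was not detectable at this depth. Of the 13 tested genes 4 were higher and 1 lower than in all non-dividing barcodes. The lower gene was Opcml, a surface protein shared with neurons, at 167 against 524 CPM. It alone set the direction of the summed list, which was 0.582-fold (0.535 to 0.632) with it and 2.32-fold (2.06 to 2.61) without it. Within the same limits these ratios were 0.604 (0.556 to 0.656) and 3.77 (3.34 to 4.24). Ednrb, an endothelin receptor that glial progenitors also express, stood at 75.3 CPM against 15 CPM in all non-dividing barcodes and 7.68 CPM within the limits.

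Neuronal differentiation genes were lower in 13 of 20 cases and higher in 0. Summed over the list, the 33 members that passed no lineage cut stood at 11885.5 CPM, against 5245 CPM in the other members. Stmn2, a microtubule regulator of neurites, had 1279 CPM (1225 to 1335) against 2685 CPM. Of its 2090 UMIs in members, 295 lay with Dlx alone and 118 with Eomes alone. A further 95 lay with Slc1a3 or Fabp7 alone and 22 with Eomes and Slc1a3 or Fabp7. The larger part lay in members that passed no cut or that passed the Dlx cut with another. The member with the most Stmn2, 129 UMIs, was a Reln member. The pooled 1279 CPM therefore does not describe the groups that passed a cut. Camk2b, a synaptic kinase, had 53.2 against 249 CPM. Nfib, a factor shared by progenitors and neurons, was at 1979 against 1530 CPM. Of 15 intermediate progenitor genes 7 were higher and 2 lower, and of 15 inhibitory progenitor genes 8 were higher and 0 lower. Radial glial genes were higher in 22 of 25 cases, with Pax6 at 264 CPM (239 to 290) against 24.8 CPM and Notch1 at 170 against 20.6 CPM.

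Outside the lists, the 12 genes with the largest folds in members were Lockd, Esco2, Fam64a, Arhgap11a, Neil3, Clic1, Knstrn, Foxm1, H2afv, Nde1, Gas2l3 and Cdca2. Lockd, a noncoding transcript beside Cdkn1b, had 179 CPM (159 to 201) against 2.74 CPM and was found in 90 members. Foxm1, a transcription factor of mitotic genes, had 72.2 CPM against 0.80 CPM, and Esco2, which links sister chromatids, had 111 CPM against 0.30 CPM. The 8 lowest were Nrgn, 9130024F11Rik, Mef2c, Arpp21, Runx1t1, Tenm2, Pou3f1 and Fam19a2. Mef2c, a factor of excitatory neurons, had 739 CPM (698 to 782) against 3678 CPM.

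Dividing members were next set against non-dividing barcodes that passed the same lineage cut and the same Olig and Pdgfra limits, which numbered 235 for Eomes alone, 40 for Eomes with Slc1a3 or Fabp7, 387 for Dlx alone and 344 for Slc1a3 or Fabp7 alone. Between 87 and 91 of the 94 G2 and mitosis genes and between 64 and 70 of the 81 S phase genes were higher in each group. The shares of all genes called higher and lower were 5.2% and 6.95% for Eomes alone, 4.38% and 7.95% for Eomes with Slc1a3 or Fabp7, 4.94% and 7.1% for Dlx alone, and 3.68% and 4.61% for Slc1a3 or Fabp7 alone. In the Dlx group, 12 of 25 radial glial genes were higher and 1 lower. There Vim was 10.3-fold (7.46 to 14.1) and Notch1 22.4-fold (13 to 39.8) the level of non-dividing Dlx barcodes, while Gad1, a second GABA enzyme, was at 0.423-fold (0.256 to 0.661). Lhx6, a factor of interneurons from the medial ganglionic eminence, had 2 UMIs in 2 of 29 dividing Dlx members, 7.32 CPM, against 152 CPM in non-dividing ones. In the Slc1a3 and Fabp7 group, 1 of 25 radial glial genes and 1 of 12 astrocyte genes were higher and 0 lower, and 16 of 20 neuronal differentiation genes were lower. These 344 non-dividing barcodes also carried microglia and blood genes at 856 CPM, against 2.42 CPM in the members, and 4 of 10 genes of that list were lower. Insm1, a factor of neurogenic progenitors, was higher in all 4 groups, from 2.91-fold (2.10 to 4.06) to 11.7-fold (9.16 to 15).

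Glo1, an enzyme that detoxifies methylglyoxal, and Hopx, a marker of outer radial glia, are named in the study. Glo1 had 144 UMIs in members, from 0 to 6 per member, and stood at 88.1 CPM (74.3 to 104) against 50.4 CPM in non-dividing barcodes, a ratio of 1.75 (1.47 to 2.07). After thinning, a Glo1 UMI was present in 13.7% (8.35% to 20.8%) of members and 9.0% (8.37% to 9.65%) of non-dividing barcodes, and these intervals overlapped. Within the same lineage cut the ratio was 1.46 (0.648 to 2.89) with Eomes alone, 0.774 (0.456 to 1.28) with Eomes and Slc1a3 or Fabp7, 1.11 (0.593 to 1.93) with Dlx alone and 1.11 (0.843 to 1.44) with Slc1a3 or Fabp7 alone. Each of these 4 intervals included 1. Hopx had 32 UMIs in 14 members, of which 29 lay in 11 members with Slc1a3 or Fabp7 alone. Its ratio to all non-dividing barcodes was 2.31 (1.57 to 3.29). Within the Slc1a3 and Fabp7 cut it was 0.593 (0.393 to 0.865), at 70.2 CPM in dividing members and 118 CPM in non-dividing barcodes. The mural and meningeal list stood at 79.9 CPM in the dividing members of this cut and at 84.5 CPM in its non-dividing barcodes. The endothelial list stood at 4.84 CPM in these members. Leaving out barcodes with at least 2 UMIs of the vascular, meningeal, microglia or blood lists left 25 members and 258 non-dividing barcodes of that cut. This alternative was chosen after seeing the data. The ratio was then 0.642 (0.361 to 1.06) for Hopx, an interval that included 1, and 1.16 (0.810 to 1.61) for Glo1. Without members with vascular, meningeal, microglia or blood genes the ratio of Hopx to all non-dividing barcodes was 1.77 (1.04 to 2.82), from 18 UMIs.

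**Figure D5:**
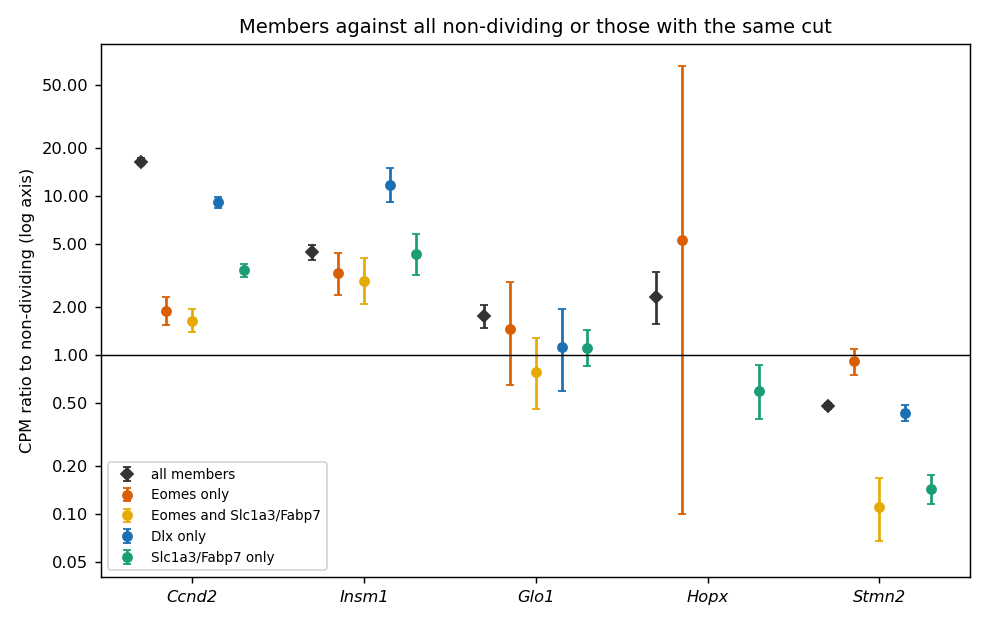
Points give the CPM ratio of members to non-dividing barcodes (log axis) with 95% counting intervals, as diamonds for all members and as circles within each lineage cut. Hopx lies above 1 for all members and below 1 within the Slc1a3 and Fabp7 cut, and groups without a Hopx UMI are left out.

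Finally, members were compared with the 133 dividing barcodes that the Olig and Pdgfra limits had left out. The S phase genes summed to 0.720-fold (0.701 to 0.739) and the G2 and mitosis genes to 0.725-fold (0.715 to 0.735) in members. Over the 99 members that passed a lineage cut, the ratios were 0.970 (0.944 to 0.997) and 1.0 (0.990 to 1.02). Over all 132 members, no S phase, G2 or mitosis gene was called in either direction, beside 2.78% of all genes higher and 0.539% lower. Ratios above 1 were found there for only 4 of 81 S phase genes and 1 of 94 G2 and mitosis genes. Ccnd1 was 0.274-fold (0.218 to 0.341) in members, at 64.3 against 235 CPM. Etv1, a transcription factor of progenitors and neurons, had 63.0 against 165 CPM. Neurog2 was 3.96-fold (2.56 to 6.34) higher in members. The Olig and Pdgfra limits set these 2 sets of dividing barcodes apart, so the values are a description. Among the 133, Hes5 was found in 96, Pax6 in 92, Insm1 in 71 and Gad2 in 35. Radial glial genes summed to 9446 CPM there against 6491 CPM in members, and inhibitory progenitor genes to 1055 against 812 CPM. Intermediate progenitor genes summed to 988 against 1280 CPM. The shares of lineage groups among members are thus not shares of all dividing barcodes.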

How the data were processed

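The data were 1 library of single cells from the cerebral cortex of WT mice at P0. The authors had the library sequenced and counted with Cell Ranger, and the submitters' processing notes name STAR, Cell Ranger 2, Seurat and the build mm9. The study's methods name a later kit chemistry (v3.1), so the Cell Ranger version and annotation behind the table are uncertain. The deposited table holds raw UMI counts for 51912 gene symbols in 11062 barcodes, 90346034 UMIs in total, and a second table gives UMIs and genes per barcode. The filter that called barcodes was not given in the sources used here. Members and gene lists were chosen with earlier results of these data known. Counts were summed over barcodes and divided by all UMIs outside 37 mitochondrial genes. Genes with at least 50 UMIs over barcodes with at least 1000 genes were compared by CPM with 10 CPM added, and called at a 2-fold difference. Intervals at 95% were exact Poisson for levels, exact binomial (Clopper-Pearson) for shares and conditional exact for ratios, all for counting error only. Zero counts were read as up to 3 counts. Barcodes were thinned to 2000 UMIs with seed 1 where depth mattered. Scrublet in scanpy 1.11.5 set an automatic threshold of 0.6 that marked 0 barcodes, so the highest 6% of scores (672 barcodes) were marked and kept, except in an alternative. The functions were tested on simulated data. Named genes were those with the largest and smallest folds of each list among genes in at least 10% of members, the 12 highest and 8 lowest genes outside the lists among genes in at least 25% of members or of non-dividing barcodes, the 8 leading genes of each group with a single lineage cut, and genes the study names. Other genes in the text come from the same lists and were picked after their values were seen to describe a group. The Reln limit, the groups split by it and the leading genes of the Reln barcodes and of members with Eomes and Slc1a3 or Fabp7 were also chosen after the values were seen. Python 3.11.15, numpy 2.4.6, scipy 1.17.1 and matplotlib 3.10.9 were used. A few genes of the lists are not reported here.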

Additional observations from a re-analysis of the deposited data

How the results depend on the processing

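Under 14 other settings, 67 of 84 values stayed within the interval of the reported value or within 1.5 times a reported count. The other 17 moved. A reversal was defined only for the ratios of Glo1 and Hopx, as a move to the other side of 1, and 0 were found. The counts of S phase genes were 61 to 72 of 81 and those of G2 and mitosis genes 90 to 92 of 94. They moved under none of the settings in which they were computed. A count cannot exceed its list, so only a fall could have been called a move. The share of members moved to 2.06% with at least 2 UMIs of the rule genes, to 1.06% with at least 5, and to 1.20% without members carrying vascular, meningeal, microglia or blood genes. Thinning before the rule moved the Dlx share to 17.7%, the Eomes share to 16.1% and the Glo1 ratio to 2.15, and lineage cuts at 2, 4 and 8 UMIs moved the share with Slc1a3 and Fabp7 to 31.1%. The G2 and mitosis ratio to S phase was least steady. With at least 5 UMIs of the rule genes it was 3.28 for Dlx and 4.63 for Slc1a3 and Fabp7. After thinning it was 3.58 for Dlx, 4.06 for Eomes and 4.83 for Slc1a3 and Fabp7. For Eomes it was 3.08 without the highest doublet scores and 4.0 with doubled cuts, and without condensins and chromatin genes it was 1.13 for Eomes, 1.32 for Dlx and 2.13 for Slc1a3 and Fabp7. The causes were not tested, except that the last setting counts fewer genes. Requiring Top2a or Mki67, or leaving out barcodes with at least 20 Reln UMIs, both chosen after seeing the data, moved no share, gene count, Glo1 ratio or Hopx ratio, and the G2 and mitosis ratio to S phase was not computed for them. No paired analysis was possible because all values came from a single library. Intervals cover counting error only, and rare genes in groups of 10 to 35 members were limited by depth.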
